A study of Mus musculus with 11 samples.

Results

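Mouse CD8 T cells that lacked galectin-3 and had been transferred into hosts that also lacked it (KO T cells in KO hosts, 4 arrays) were compared with galectin-3 wild-type T cells transferred into wild-type hosts (WT T cells in WT hosts, 4 arrays). These 8 arrays are part of a series of 11. The other 3 arrays hold WT T cells from KO hosts and are given here only as values beside the comparison. The comparison covered every row of the deposited table that names a single gene in the platform annotation, with the row of highest mean signal kept for each gene, which gave 20259 genes. Of these, 15194 had a mean log2 signal at or above the 25th percentile (4.33) and were tested. No gene passed limma at an adjusted p under 0.05. The differences below are therefore described by their values, their standard errors (SE) and counts at an unadjusted p under 0.05, read against the same counts over all genes.

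All groups shared the same treatment. The donors were T cell receptor transgenic mice whose CD8 T cells carried the congenic surface marker Thy1.2. Hosts received 2 injections of NT2.5 cells, a mouse mammary tumor line, on day 0. Cyclophosphamide was given at 100 mg/kg on day 8, a whole-cell vaccine secreting GM-CSF on day 9 and the T cells on day 10. Tumors were dissociated 5 days after the transfer and the transferred cells were sorted by flow cytometry on Thy1.2. Strain background, age and sex are not given in the labels. The design text calls the samples biological replicates without saying whether an array holds the cells of 1 mouse or of several, and the p-values speak only of the spread among these samples. In KO T cells in KO hosts the T cell and the host genotype differ from the reference together, and the parts of both in a difference cannot be told apart within this comparison.

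Galectin-3 is a secreted lectin that binds galactose-containing glycans on receptors and other surface proteins. In T cells it is known for cross-linking glycoproteins of the T cell receptor complex and for binding the inhibitory receptor LAG-3, and it is made by macrophages and tumor cells as well as by activated T cells. A CD8 T cell that meets its antigen enters the cell cycle, makes interferon gamma and chemokines, and loads granules with perforin and granzymes. Interferon gamma in turn induces guanylate-binding proteins, the chemokines of CXCR3 and the transcription factor Irf1 in cells that receive it.

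The promoters of 4 genes are shown because they carry the letters shared by the gene groups described below. They are the RefSeq windows from 250 bases before to 50 bases after the gene start in GRCm38.p6, read 5′ to 3′ on the strand of the gene. Depdc1a (chr3:159495183-159495482, plus strand) and Top2a (chr11:99024140-99024439, minus strand) are genes of mitosis. The capitals in these sequences mark TTTGAA, the core of the cell cycle homology region, and CCAAT, on either strand (so that TTCAAA and ATTGG also appear).
Depdc1a: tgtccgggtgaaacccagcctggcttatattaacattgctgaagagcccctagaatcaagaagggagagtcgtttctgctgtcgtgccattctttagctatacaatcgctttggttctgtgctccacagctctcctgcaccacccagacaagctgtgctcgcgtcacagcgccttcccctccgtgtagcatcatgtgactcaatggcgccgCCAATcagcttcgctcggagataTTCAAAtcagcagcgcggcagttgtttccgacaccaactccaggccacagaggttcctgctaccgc
Top2a: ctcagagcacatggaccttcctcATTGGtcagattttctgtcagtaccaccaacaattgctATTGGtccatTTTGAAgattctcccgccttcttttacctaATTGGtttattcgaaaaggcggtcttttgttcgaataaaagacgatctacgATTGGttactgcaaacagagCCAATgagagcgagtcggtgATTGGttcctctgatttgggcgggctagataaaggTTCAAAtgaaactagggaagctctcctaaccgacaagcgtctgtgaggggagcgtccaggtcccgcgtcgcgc
Irf1 (chr11:53769764-53770063, plus strand) and Irgm1 (chr11:48871371-48871670, minus strand) belong to the interferon gamma group. They were chosen after their matches were seen. The capitals mark TTCNNNGAA, the core of the gamma-activated site, and GAAA, any 2 letters and GAAA again, the core of the interferon-stimulated response element, on either strand. The 2 matches of this element in Irgm1 overlap.
Irf1: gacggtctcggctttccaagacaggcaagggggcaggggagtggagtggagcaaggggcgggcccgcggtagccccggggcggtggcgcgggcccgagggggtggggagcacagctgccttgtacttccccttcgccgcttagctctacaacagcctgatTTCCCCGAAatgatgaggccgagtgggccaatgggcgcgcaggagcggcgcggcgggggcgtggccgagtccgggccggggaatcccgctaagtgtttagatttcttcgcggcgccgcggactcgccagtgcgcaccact
Irgm1: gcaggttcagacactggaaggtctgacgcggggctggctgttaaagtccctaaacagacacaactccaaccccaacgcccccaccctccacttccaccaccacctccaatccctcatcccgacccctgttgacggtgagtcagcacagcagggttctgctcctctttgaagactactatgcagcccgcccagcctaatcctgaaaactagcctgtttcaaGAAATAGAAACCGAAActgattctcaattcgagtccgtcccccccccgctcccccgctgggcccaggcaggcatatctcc

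Lgals3, the gene of galectin-3, gives the check of the labels. Its log2 signal was 8.49, 8.15, 8.17 and 8.41 in WT T cells in WT hosts, and 7.39, 7.54, 7.26 and 7.54 in KO T cells in KO hosts, in the order of the replicate numbers, which is kept throughout. The groups did not overlap. The difference was -0.87 (SE 0.13, 95% interval -1.16 to -0.59), with a limma adjusted p of 0.103. An exact permutation test, two-sided, gave p = 0.0286, its lower bound for groups of 4 arrays. The WT T cells in KO hosts, at 8.35, 8.02 and 8.45, lay near the reference arrays, with 1 array below their lowest. Whether the probes of this row fall in the deleted part of Lgals3 is not known here, and the signal left in KO T cells can be read neither as residual transcript nor as background. Of the 7 galectin genes and galectin-binding partners tested, Lgals8, a tandem-repeat galectin, was higher by 0.23 (SE 0.09) with non-overlapping groups (limma adjusted p = 0.561). Lgals3bp, a secreted glycoprotein bound by galectin-3, differed by 0.15 (SE 0.10) with overlapping groups.

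The arrays had similar medians but not the same value range. Over all rows, the medians of the 11 arrays lay between 4.50 and 4.64. Pairs of the 8 arrays compared correlated between 0.941 and 0.971 across genes. The processing notes of the deposited values name RMA, and these figures do not measure RNA or array quality. The number of arrays limited the precision, with a median SE of a difference of 0.145. Arrays 1 and 4 of WT T cells in WT hosts had a narrower value range, their slopes against the mean of all arrays being 0.956 and 0.934, while the other 6 arrays lay between 0.989 and 1.03. Results were therefore also computed without these 2 arrays. The markers of the sorted cells were high in all arrays. Cd8a read 10.92 to 11.14 and Thy1 read 9.67 to 10.26 over the 8 arrays, near the top of all genes, whereas Cd4, at 4.12 to 4.32, fell below the filter. None of the 15 T cell identity genes tested had an unadjusted p under 0.05, against 8.46% of all genes, a share at which so short a list can hold none. Of these genes 13 had a higher mean in KO T cells in KO hosts. The median difference was 0.08, and -0.025 without the 2 arrays of narrow range.

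Over all 15194 genes, 1285 (8.46%) had an unadjusted p under 0.05, of which 728 (4.79% of those tested) were higher in KO T cells in KO hosts and 557 (3.67%) were lower. Non-overlapping groups were seen for 762 genes (5.02%), of which 396 (2.61%) were higher and 366 (2.41%) lower. The median difference was -0.02. The difference depended on signal level. In the 25% of genes with the lowest mean signal the median difference was -0.10, and in the 25% with the highest it was 0.07. Without the 2 arrays of narrow range these medians were -0.03 and 0.02, and the counts at an unadjusted p under 0.05 were 469 higher (3.09%) and 296 lower (1.95%). The split between higher and lower thus moved with scaling. Median centring gave 1032 higher and 385 lower, and quantile normalization gave 647 and 613.

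**Figure D1:**
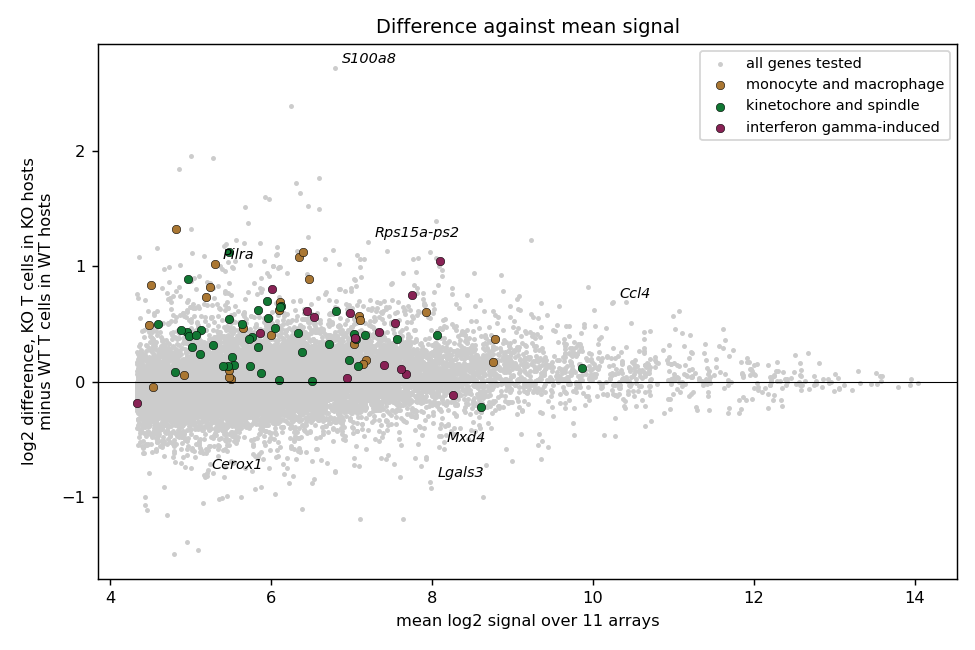
Log2 signal of KO T cells in KO hosts minus that of WT T cells in WT hosts (vertical axis) against mean log2 signal over all arrays (horizontal axis), with 1 point for each of the 15194 genes tested and with members of named groups marked. The cloud tilts from a median of -0.10 in the 25% of genes of lowest signal to 0.07 in the 25% of highest, and Lgals3 lies at -0.87.

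Genes of the kinetochore and mitotic spindle, which attach chromosomes to microtubules and pull them apart, were higher in KO T cells in KO hosts. Of the 44 tested, 43 had a higher mean and 23 (52.3%) were higher at an unadjusted p under 0.05, none lower, against 4.79% of all genes. The median difference of the list was 0.38, beside -0.02 over all genes. Without the 2 arrays of narrow range 13 members passed, with a median of 0.29, against 3.09% of all genes higher in that fit. Shcbp1 and Depdc1a had been seen among the leading genes before they were put on this list.

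Depdc1a, which is needed for normal mitotic progression, read 5.19, 4.66, 5.54 and 4.60 in WT T cells in WT hosts, and 5.98, 5.92, 6.37 and 6.22 in KO T cells in KO hosts. Every KO array lay above every reference array. The difference was 1.12 (SE 0.20; limma adjusted p = 0.188), and the other row for this gene gave 0.79. Shcbp1, a component of the central spindle and midbody, read 4.31, 4.60, 4.45 and 4.92 against 5.48, 5.19, 5.48 and 5.71, again without overlap. Its difference was 0.89 (SE 0.16; limma adjusted p = 0.188).

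Ndc80, the kinetochore protein that grips the microtubule end, read 6.28, 6.76, 6.66 and 6.56 in the reference arrays and 7.11, 7.21, 7.18 and 7.20 in the KO arrays. The KO arrays were closely grouped and all higher. The difference was 0.61 (SE 0.13; limma adjusted p = 0.317). Cenpf, a large kinetochore protein of late cell cycle phases, read 5.76, 5.66, 5.81 and 5.79 against 6.51, 6.42, 6.04 and 6.70, a difference of 0.66 (SE 0.13; limma adjusted p = 0.263). Further members without overlap were the kinesins Kif20a at 0.65 (SE 0.14) and Kif4 at 0.50 (SE 0.15), the motor Cenpe at 0.62 (SE 0.14), and the cytokinesis factors Ect2 at 0.45 (SE 0.11) and Anln at 0.40 (SE 0.13). Nuf2, the partner of Ndc80, was the 1 member with a lower mean, at -0.22 (SE 0.46). Aurka and Cdca8 lay near 0, at 0.02 (SE 0.16) and 0.01 (SE 0.13).

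The mean signal of the 44 spindle genes was 5.85, 5.87, 5.97 and 5.88 in WT T cells in WT hosts and 6.17, 6.28, 6.09 and 6.49 in KO T cells in KO hosts. Array 4 of the KO T cells was highest, and leaving it out gave the lowest median of the list among the fits that each left out an array, 0.26. In WT T cells in KO hosts the mean signal was 5.99, 6.06 and 5.98, above every reference array and below every array of KO T cells. The comparison of WT T cells in KO hosts with the reference shares the reference arrays, and in it the median of the list was 0.11.

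**Figure D2:**
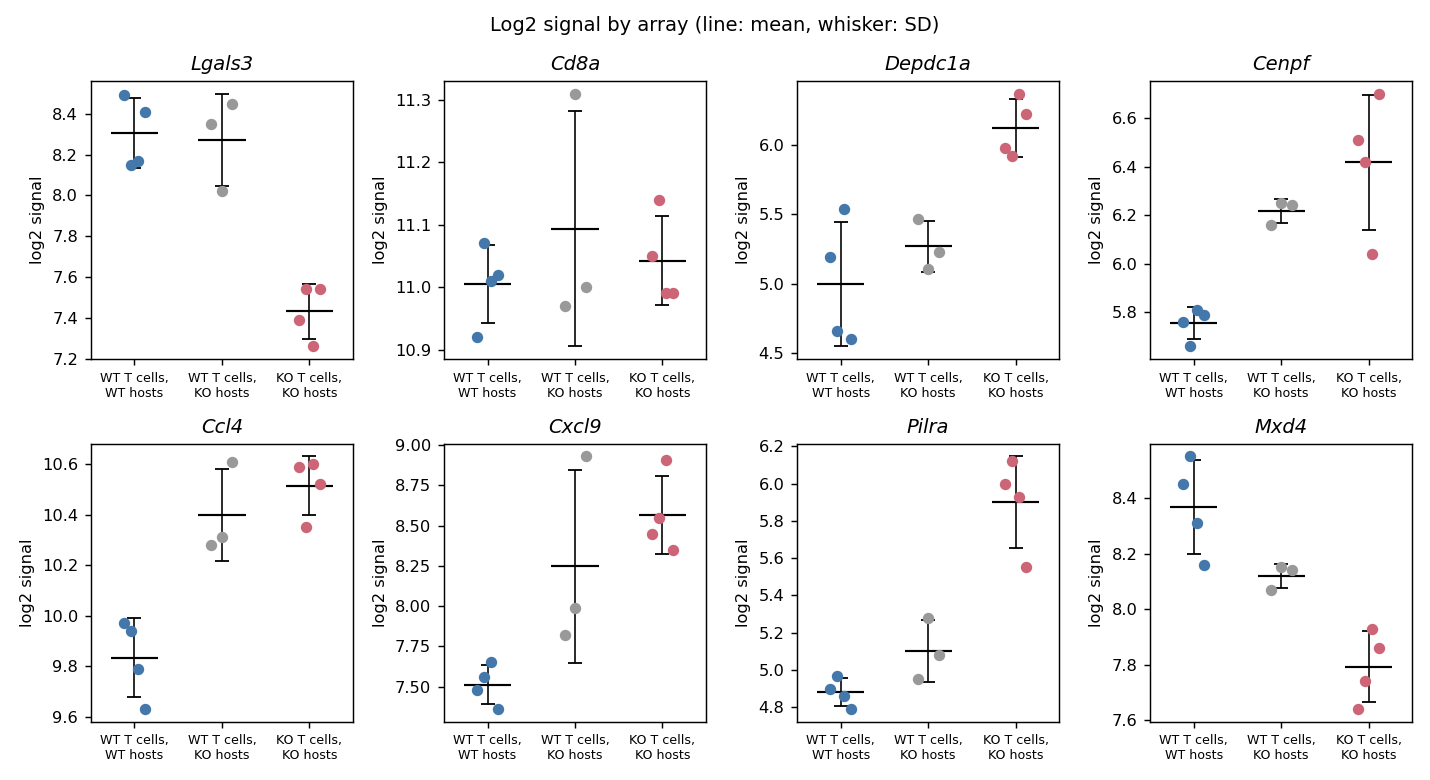
Log2 signal of single genes (vertical axes) in each array of the 3 groups (horizontal axes, with 1 point per array, a line at the group mean and a whisker of 1 SD to each side). Lgals3 is lower in all 4 KO T cell arrays, while Depdc1a, Ccl4, Cxcl9 and Pilra are higher in all 4 arrays of KO T cells in KO hosts than in the reference arrays.

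Other parts of the cell cycle showed smaller differences. Of 24 mitotic cyclins and regulators, 23 had a higher mean, and the median was 0.22. At an unadjusted p under 0.05, 4 (16.7%) were higher and none lower, against 4.79% of all genes higher. Top2a, the topoisomerase that untangles sister chromatids, read 7.02, 6.96, 7.24 and 6.99 against 7.33, 7.48, 7.22 and 7.57. Array 3 of the reference reached into the range of the KO arrays. The difference was 0.35 (SE 0.11; limma adjusted p = 0.468). Cdk1, the kinase that drives entry into mitosis, was higher by 0.40 (SE 0.15) without overlap, and the condensin subunit Ncaph by 0.42 (SE 0.14), also without overlap. Mki67, the proliferation marker Ki-67, read 8.92 to 9.37 in the reference and 9.04 to 9.54 in KO T cells, with overlap and an interval of -0.05 to 0.56.

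Among 50 genes of DNA replication, 42 had a higher mean, 6 were higher at an unadjusted p under 0.05 and none showed groups without overlap. The median of that list was 0.17, and without the arrays of narrow range 2 members passed. Rrm1, the large subunit of ribonucleotide reductase, was higher by 0.38 (SE 0.12; limma adjusted p = 0.463). Rfc2, a clamp loader subunit, gave 1.12 (SE 0.31) in its brightest row but 0.12 in its other row. Of 24 DNA damage response genes, 19 had a higher mean and 3 (12.5%) were higher at an unadjusted p under 0.05, beside 4.79% of all genes. These were the exonuclease Exo1 at 0.48 (SE 0.15), Brca1 at 0.37 (SE 0.13) and the helicase Blm at 0.27 (SE 0.12). Of 23 genes of cyclins and inhibitors of the G1 phase, 3 were higher and none lower, with a median of 0.09. Of 12 genes of the Myc, Max and Mxd network, 1 was higher and 2 were lower at an unadjusted p under 0.05, with a median of 0.06. Mlx, a partner of Mxd and Mondo proteins, was higher by 0.60 (SE 0.19) with overlap. Mxd4, a repressor that opposes Myc and is known from resting and differentiating cells, read 8.45, 8.55, 8.31 and 8.16 against 7.64, 7.74, 7.93 and 7.86. It was lower in every KO array, by a difference of -0.57 (SE 0.11; limma adjusted p = 0.260). Mnt, another Max partner that opposes Myc, was also lower without overlap, at -0.35 (SE 0.12), while Myc itself differed by 0.31 (SE 0.15) with overlap.

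The letters marked in the promoters above were counted in the RefSeq promoters of 5 lists, the 3 below and the 2 of interferon genes. TTTGAA was present in 29 of 40 kinetochore and spindle promoters (72.5%), in 63.2% of the 19 promoters of mitotic cyclins and regulators and in 14.3% of the 42 of DNA replication, beside 12.4% of the 11692 tested genes with a promoter. CCAAT was present in 70.0%, 73.7% and 57.1% of these lists and in 37.7% of the tested genes. Both stood together in 55.0% of the spindle promoters, as in Depdc1a and Top2a, and in 5.1% of the tested genes. These shares describe the sequences of the lists, whatever their expression, and a match is not a shown binding site.

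Effector genes of CD8 T cells differed in part. Of 18 cytokines, chemokines and death ligands, 13 had a higher mean. At an unadjusted p under 0.05, 3 (16.7%) were higher, all without overlap, against 4.79% of all genes. Ccl4, a chemokine released by activated CD8 T cells, read 9.97, 9.94, 9.79 and 9.63 in the reference and 10.59, 10.35, 10.60 and 10.52 in KO T cells in KO hosts. The difference was 0.68 (SE 0.12; limma adjusted p = 0.188). Its relative Ccl3 read 10.91, 10.73, 10.44 and 10.73 against 11.09, 11.43, 11.13 and 11.62, a difference of 0.61 (SE 0.14; limma adjusted p = 0.386).

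Ifng, the gene of interferon gamma, read 9.58, 9.69, 9.57 and 9.73 against 10.24, 10.17, 9.82 and 10.34. All KO arrays were higher, and the difference was 0.50 (SE 0.15; limma adjusted p = 0.444). Gzmb, the granule protease granzyme B, read 11.50, 11.40, 11.34 and 11.14 against 11.76, 11.82, 11.55 and 12.09, also without overlap. Its difference was 0.46 (SE 0.13; limma adjusted p = 0.416). Gzma was higher by 0.52 (SE 0.18) and the pore protein gene Prf1 by 0.30 (SE 0.14, interval -0.01 to 0.62), each without overlap. Granule genes as a group were mixed, since 10 of 15 had a higher mean and the median was 0.08. At an unadjusted p under 0.05, 3 of the 15 were higher and none lower, against 4.79% of all genes higher. These were Gzmb, Gzma and Lamp1, the last at 0.37 (SE 0.13) without overlap. Groups did not overlap for 5 of the 15 (33.3%), all higher, against 2.61% of all genes.

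In WT T cells in KO hosts, Ccl4 read 10.28, 10.31 and 10.61 and Gzmb read 11.80, 11.74 and 11.58, all above the reference arrays. Ifng read 9.52, 10.10 and 10.06 there, with 1 array below every reference array. KO T cells in KO hosts minus WT T cells in KO hosts gave 0.12 (SE 0.13) for Ccl4, 0.10 (SE 0.14) for Gzmb and 0.25 (SE 0.16) for Ifng. With these errors the groups cannot be called alike. Macrophages also make Ccl3 and Ccl4, and the macrophage markers described below were higher in the same arrays, but their part in these values was not tested.

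Receptors and transcription factors of exhaustion showed few differences. Of 13 inhibitory receptors, 1 was higher at an unadjusted p under 0.05 (Entpd1, the ectonucleotidase CD39, at 0.30, SE 0.10), and the median was 0.03. Lag3, the gene of the receptor that galectin-3 binds, read 9.34, 9.52, 9.60 and 9.50 against 9.72, 9.52, 9.34 and 9.45. The groups overlapped fully, with a difference of 0.02 and an interval of -0.24 to 0.28. Pdcd1, the gene of PD-1, differed by 0.04 with an interval of -0.32 to 0.40. Among 21 effector and exhaustion transcription factors, Prdm1, the gene of Blimp-1, was the 1 with an unadjusted p under 0.05, at 0.40 (SE 0.14). Among 16 naive, memory and homing genes it was Ccr7, the receptor for lymph node homing, which was lower in every KO array, at -0.45 (SE 0.14; limma adjusted p = 0.444). The 20 activation and costimulation genes held none. Entpd1, Prdm1 and Ccr7 make 7.69%, 4.76% and 6.25% of their lists. Of all genes, 4.79% were higher and 3.67% lower at that threshold.

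Genes induced by interferon gamma were higher. Of 16 tested, 14 had a higher mean and 8 were higher at an unadjusted p under 0.05, none lower, against 4.79% of all genes. The median was 0.43, and without the arrays of narrow range it was 0.41 with 6 members passing, against 3.09% of all genes in that fit. Cxcl9, a chemokine of the receptor CXCR3, read 7.48, 7.56, 7.65 and 7.36 in the reference and 8.45, 8.55, 8.91 and 8.35 in KO T cells in KO hosts. The groups were well apart, with a difference of 1.05 (SE 0.21; limma adjusted p = 0.294).

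Irf1, a transcription factor of the interferon response, read 7.42, 7.15, 6.86 and 7.30 against 7.69, 7.67, 7.70 and 7.70, a difference of 0.51 (SE 0.14; limma adjusted p = 0.416). Irgm1, an immunity-related GTPase, read 6.26, 6.37, 5.97 and 6.06 against 6.72, 7.01, 6.57 and 6.61, a difference of 0.56 (SE 0.14; limma adjusted p = 0.405). Neither gene showed overlap. The guanylate-binding protein genes Gbp3, at 0.59 (SE 0.14), and Gbp2, at 0.76 (SE 0.21), were also higher, the first without overlap. Ido1 and Socs1 had lower means, at -0.19 (SE 0.13) and -0.12 (SE 0.14).

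Of 27 genes stimulated by type I interferon, 24 had a higher mean, and the median was 0.21. At an unadjusted p under 0.05, 7 (25.9%) were higher and none lower, against 4.79% of all genes higher. Without the arrays of narrow range 4 passed, against 3.09% of all genes. Oasl2, an oligoadenylate synthetase-like protein gene, read 4.32, 4.46, 4.16 and 4.40 against 4.60, 4.93, 4.94 and 4.82, a difference of 0.49 (SE 0.11; limma adjusted p = 0.386). Usp18, which removes ISG15 from proteins, was higher by 0.43 (SE 0.12) and Irf9, a subunit of the ISGF3 complex, by 0.64 (SE 0.18), both without overlap. Rsad2 and Oasl1 lay near 0, at -0.02 (SE 0.11) and -0.04 (SE 0.12). Psme1, a proteasome activator subunit used in class I antigen processing, was higher by 0.42 (SE 0.10) without overlap, and 2 of the 13 genes of its list had an unadjusted p under 0.05.

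The mean signal of the 16 interferon gamma genes was 6.88, 6.73, 6.69 and 6.75 in WT T cells in WT hosts, 7.02, 7.10 and 7.15 in WT T cells in KO hosts, and 7.04, 7.19, 7.19 and 7.17 in KO T cells in KO hosts. Both groups from KO hosts lay above the reference. KO T cells in KO hosts minus WT T cells in KO hosts had a list median of 0.01. TTCNNNGAA was present in 7 of 14 promoters of the list and the interferon-stimulated response element in 8 (57.1%), beside 6.7% and 2.7% of the tested genes. In the 19 promoters of the type I interferon list these shares were 21.1% and 42.1%. Cxcl9 and Oasl2 have neither in this window. The macrophage markers were higher in the same arrays as the interferon lists, and their part in these values was not tested.

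**Figure D3:**
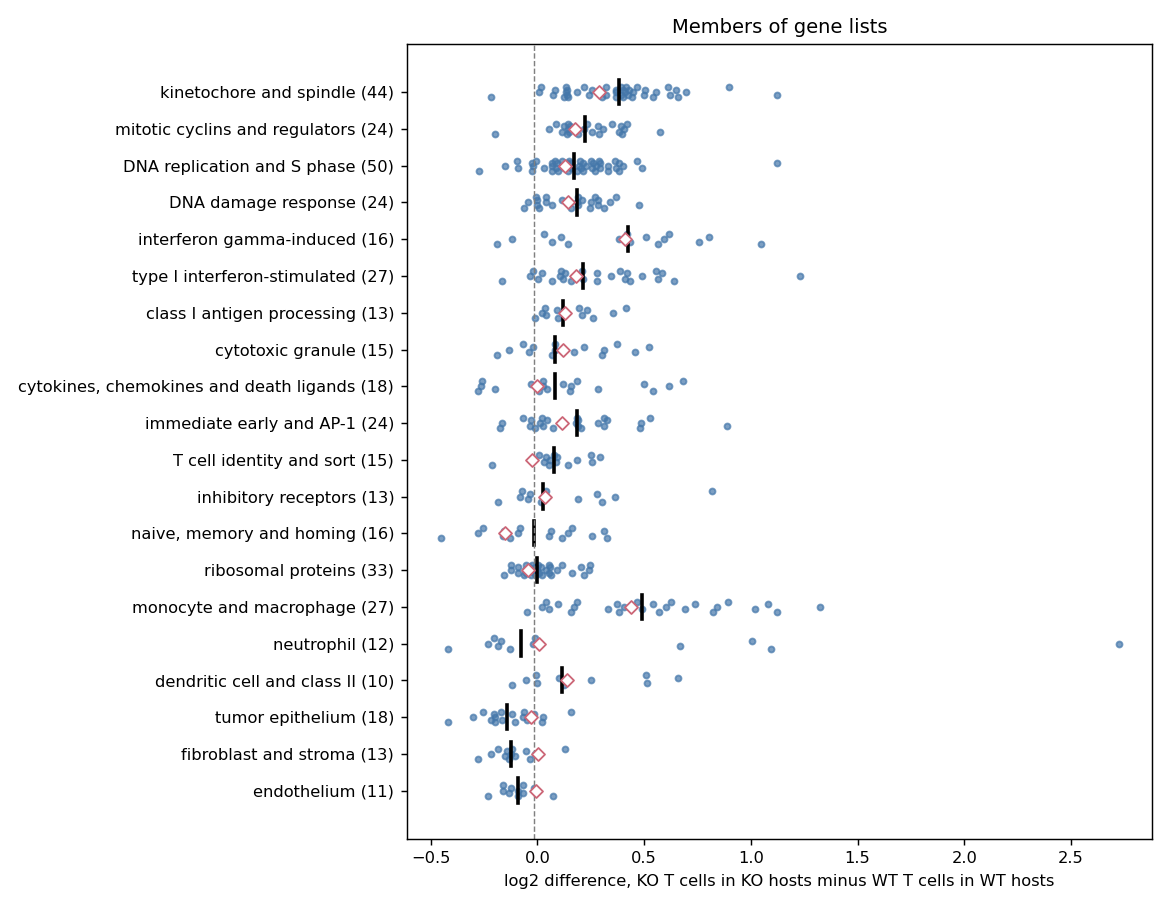
Median over each gene list of the log2 signal of KO T cells in KO hosts minus that of WT T cells in WT hosts (horizontal axis), with blue points for the members tested, a black bar at the median, an open diamond at the median without the 2 arrays of narrow range and a dashed line at the median of all genes. The macrophage, interferon gamma and spindle lists have medians of 0.49, 0.43 and 0.38, while the median of the 33 ribosomal protein genes is -0.00.

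Markers of monocytes and macrophages, which are not the cells that the sort on Thy1.2 was meant to collect, were higher in KO T cells in KO hosts. Of 31 measured, 27 were tested and 26 had a higher mean. At an unadjusted p under 0.05, 16 (59.3%) were higher and none lower, against 4.79% of all genes higher. Groups did not overlap for 12 (44.4%), all higher, against 2.61% of all genes. The median was 0.49. Without the arrays of narrow range it was 0.44 with 12 passing, against 3.09% of all genes. Pilra and Tlr13 had been seen among the leading genes before they entered this list. No purity of the sort is given here. In bulk arrays such as these, a different number of cells of a type and a different amount of RNA per cell cannot be told apart.

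Pilra, an inhibitory receptor of myeloid cells, had the lowest p of all genes. It read 4.90, 4.97, 4.86 and 4.79 in WT T cells in WT hosts and 6.00, 6.12, 5.93 and 5.55 in KO T cells in KO hosts. The groups were far apart, by 1.02 (SE 0.13; limma adjusted p = 0.058). Over the 25 alternatives the difference was 0.94 to 1.14 and the limma adjusted p 0.0143 to 0.752, the lowest without array 4 of the KO T cells and the highest without the 2 arrays of narrow range. In WT T cells in KO hosts it read 4.95, 5.28 and 5.08. Csf1r, the receptor of the macrophage growth factor, read 5.60, 5.89, 6.10 and 6.23 against 6.99, 7.13, 6.69 and 6.58, a difference of 0.89 (SE 0.20; limma adjusted p = 0.386). Spi1, the myeloid transcription factor PU.1, read 6.01, 5.58, 5.72 and 5.44 against 6.81, 7.40, 6.57 and 6.29, a difference of 1.08 (SE 0.23; limma adjusted p = 0.358). Itgam, the integrin chain CD11b, was higher by 0.63 (SE 0.13), also without overlap.

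The mean signal of the 27 macrophage genes was 5.82, 5.93, 5.90 and 5.76 in the reference, 6.18, 6.16 and 6.63 in WT T cells in KO hosts and 6.40, 6.50, 6.44 and 6.14 in KO T cells in KO hosts. All arrays from KO hosts lay above all reference arrays, and array 4 of the KO T cells, the array with the highest spindle genes, was lowest within its group. Cd68, Cd14 and C1qa had overlapping groups, with differences of 0.37 (SE 0.23), 0.57 (SE 0.46) and 0.19 (SE 0.16). The markers Mrc1 and Vcan were below the filter.

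Neutrophil genes were split. S100a8, a subunit of calprotectin, read 4.89, 6.41, 5.67 and 4.93 against 7.96, 8.80, 8.91 and 7.13. Its difference of 2.72 (SE 0.55; limma adjusted p = 0.279) was the largest of any gene tested, with no overlap. Its partner S100a9 was higher by 1.10 (SE 0.23) and Csf3r, the receptor of granulocyte colony-stimulating factor, by 0.67 (SE 0.18), each without overlap. The granule genes Elane, at -0.20 (SE 0.13), Ltf, at -0.17 (SE 0.09), and Mpo, at -0.01 (SE 0.15), were not higher, and Ly6g and Ngp were below the filter. Of the 12 neutrophil genes tested, 4 (33.3%) were higher at an unadjusted p under 0.05, against 4.79% of all genes, and none was lower. Groups did not overlap for 3 higher members and 1 lower member of the 12, against 2.61% higher and 2.41% lower of all genes. The median was -0.08. That median turned positive under several alternatives, and was 0.01 without the arrays of narrow range and 0.40 with the filter at the 50th percentile. Of the 10 dendritic cell and class II genes, Cd74, H2-Ab1 and H2-Aa were higher at an unadjusted p under 0.05, at 0.66, 0.51 and 0.51, and 1 member passed without the arrays of narrow range.

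Few markers of most other cell types of a tumor had an unadjusted p under 0.05. None of 18 epithelial, 13 fibroblast, 11 endothelial or 9 B cell genes did, with medians of -0.14, -0.13, -0.09 and -0.05. Lower means were seen for 15, 12, 10 and 8 of these genes. Without the arrays of narrow range their medians were -0.03, 0.00, -0.01 and -0.02. Of 5 tested CD4 and regulatory T cell genes and 4 of innate lymphoid cells none had an unadjusted p under 0.05 either. Of 6 erythroid and platelet genes Itga2b, a platelet integrin chain, was lower at -0.27 (SE 0.11). Of all genes 4.79% were higher and 3.67% lower, and lists this short can hold none at such shares. The epithelial, fibroblast, endothelial and innate lymphoid lists each held 1 member lower without overlap, against 2.41% of all genes. Among 9 lectin receptor and adaptor genes of the NK type, Klre1 was higher by 0.81 (SE 0.22), the adaptor Tyrobp by 0.94 (SE 0.26) and Fcer1g by 0.43 (SE 0.14), all without overlap. In this list 3 members (33.3%) were higher at an unadjusted p under 0.05, against 4.79% of all genes. Tyrobp and Fcer1g are also made by macrophages, whose markers were higher in the same arrays, but the part of macrophages in these values was not tested.

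**Figure D4:**
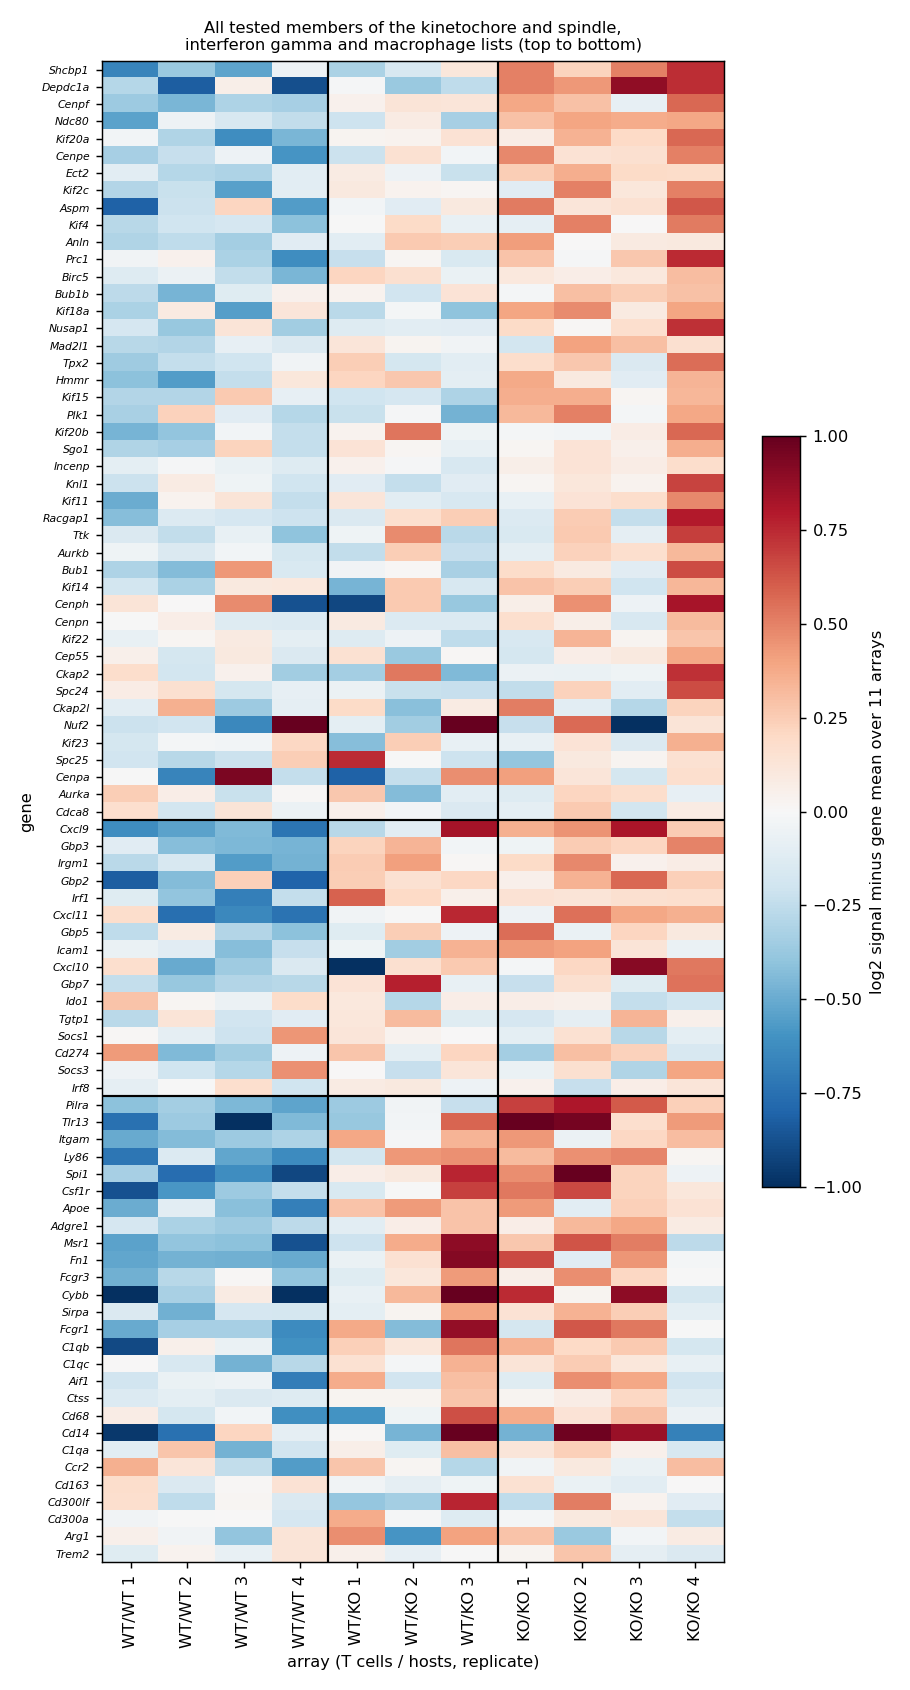
Log2 signal of each tested member of the kinetochore and spindle, interferon gamma and macrophage lists (rows, from top to bottom) in each of the 11 arrays (columns), shown as the deviation from the mean of the gene over the arrays, with the colors ending at 1 on either side. The spindle genes are highest in array 4 of KO T cells in KO hosts, at a mean signal of 6.49, and the macrophage genes in array 3 of WT T cells in KO hosts, at 6.63.

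The glycan genes bear on the ligands of galectins. Of 29 genes of glycan branching and sialylation, 4 (13.8%) were higher and 1 (3.45%) lower at an unadjusted p under 0.05, against 4.79% and 3.67% of all genes. The median was -0.04. Without the arrays of narrow range 2 were higher and 1 lower, beside 3.09% and 1.95% of all genes. C1galt1, which builds the core 1 O-glycan, read 7.10, 7.41, 7.65 and 7.14 against 8.12, 8.20, 7.70 and 7.89. The groups did not overlap, though array 3 of each came close, and the difference was 0.65 (SE 0.15; limma adjusted p = 0.386). St3gal1, which adds sialic acid to that core, was higher by 0.47 (SE 0.13) without overlap. Gcnt1, which branches it, was higher by 0.34 (SE 0.14). Mgat5, which makes the N-glycan branches that galectin-3 binds, had a poorly measured difference of -0.55 (SE 0.46).

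Genes of the early response to stimulation included 4 of 24 (16.7%) that were higher at an unadjusted p under 0.05, against 4.79% of all genes. Ier3, an immediate early gene, read 6.50, 6.52, 6.36 and 6.51 against 7.31, 7.77, 6.88 and 7.48, a difference of 0.89 (SE 0.17; limma adjusted p = 0.252). Jun, a subunit of AP-1, was higher by 0.49 (SE 0.13). Both were without overlap. In WT T cells in KO hosts, Ier3 read 7.45, 7.18 and 7.48. Other lists held few members with an unadjusted p under 0.05, where 4.79% of all genes were higher and 3.67% lower. In ribosomal proteins 1 of 33 was higher, in the respiratory chain none of 34 passed, in glycolysis and hypoxia 2 of 29 were higher, and in T cell receptor signalling 2 of 29. In the Bcl2 family 1 of 22 was lower. Heat shock genes and genes of the unfolded protein and integrated stress responses had 1 higher and 1 lower each, of 16 and 21. Chromatin and histone supply had 3 of 28 higher, amino acid and nucleotide supply 1 of 20, and chemokine receptors and integrins 2 higher and 1 lower of 21. For the proteasome 5 of 28 (17.9%) were higher. Without the arrays of narrow range 0 members of the proteasome, chromatin, ribosomal, heat shock and stress lists were higher, beside 3.09% of all genes.

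Among the other genes with the lowest p, Rps15a-ps2, a ribosomal pseudogene whose signal may come from related sequences, was higher by 1.21 (SE 0.16; limma adjusted p = 0.058). It read 6.70, 6.40, 6.63 and 6.10 in the reference, 7.48, 7.39 and 7.83 in WT T cells in KO hosts, and 7.72, 7.47, 7.95 and 7.52 in KO T cells in KO hosts. Both groups from KO hosts lay above the reference. Cerox1, a noncoding RNA gene known in mouse for regulating complex I of the respiratory chain, was lower, at 5.55, 5.56, 5.49 and 5.52 against 4.82, 4.73, 4.38 and 4.97 (difference -0.81, SE 0.12; limma adjusted p = 0.104). Cd209e, a C-type lectin gene, was lower by a difference of -0.62 (SE 0.10; limma adjusted p = 0.188). Ppp1r15b, the constitutive subunit of an eIF2α phosphatase and the member of the stress list counted as lower above, was lower in its brightest row, at -0.68 (SE 0.16), but its other rows gave -0.19, 0.89 and 0.16. Frmd6 was higher by 0.59 (SE 0.10) in 1 row and by 0.08 in the other.

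A knockout allele is bred in together with the chromosome segment around it, and genes near Lgals3 were therefore counted apart. By RefSeq positions, 199 measured genes lie within 10 Mb of Lgals3 on chromosome 14, and 146 were tested. Of these 13 (8.90%) were higher and 5 (3.42%) lower at an unadjusted p under 0.05, beside 4.79% and 3.67% of all genes tested. The median was 0.04. Without the arrays of narrow range 8 were higher and 2 lower, beside 3.09% and 1.95% of all genes. The 13 higher genes include Gzmb, Psme1 and Irf9 from the lists above, and Dlgap5, a spindle assembly factor, at 0.80 (SE 0.20). Ripk3, a kinase of necroptosis named after its values were seen, read 7.78, 7.67, 7.09 and 7.37 in the reference, 6.76, 7.51 and 7.87 in WT T cells in KO hosts, and 8.07, 8.75, 8.02 and 8.87 in KO T cells in KO hosts. All KO T cell arrays were above all WT T cell arrays. Whether the strain of the segment bears on these values was not tested.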

How the data were processed

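Per the labels' protocols, RNA was isolated with a Nanoprep kit, and amplification used the NuGEN Pico WTA chemistry before biotin-labelled hybridisation. The authors deposited log2 signals of 11 arrays (115830 rows). RMA, Partek and the genome build mm9 are named in the submitters' processing notes, without versions. That the scale is log2 was inferred from the range, 1.27 to 14.4.

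Rows were named through the platform annotation. Of them 25539 name 1 gene, 2300 several and 87991 are unnamed here, and the brightest of several rows was kept per gene. Entrez identifiers of 24941 rows were found in the RefSeq table. Genes under the 25th percentile of mean signal were left out.

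The test was limma 3.58.1 in R 4.3.3 (lmFit and eBayes, group means over all 11 arrays, Benjamini-Hochberg adjustment). Of 44971 tested rows that name no single gene, 0 were called by limma at an adjusted p under 0.05, and 2849 were below 0.05 before adjustment. Promoters are RefSeq's (GRCm38.p6), searched on both strands. Apart from the promoter windows in GRCm38.p6, coordinates of genes are not printed, since the authors' build differs. The members, the 42 lists and the comparison were chosen with earlier results of these data known. Named genes were the 12 of lowest p in each direction, the 3 of lowest p and the brightest of each list, and a fixed set of T cell and macrophage genes. Further members of the lists were named after their values were seen. Not every named gene is printed. Alternatives changed the normalization, filter, row rule, variance model, samples, a replicate block and each array left out in turn.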

Additional observations from a re-analysis of the deposited data

Results flagged for a closer look

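In 104 groups of 4 arrays checked, 7 had an array that stood apart from the other 3 by Dixon's 95% limit, and chance gives about 1 in 20. In WT T cells in WT hosts, array 3 was lowest for Lgals3bp (6.241), Prf1 (9.544), Usp18 (4.453) and Ier3 (6.360) and highest for Rrm1 (7.771), and array 1 was lowest for Psme1 (8.028). In KO T cells in KO hosts, array 4 had the highest mean signal of the type I interferon list (6.334).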

How the results depend on the processing

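The comparison was recomputed under 25 alternatives, 11 of which left out 1 array. Lgals3 was lower in each, between -0.97 and -0.70, and from -0.92 to -0.81 when arrays were left out. No gene passed limma at an adjusted p under 0.05 except as follows. Median centring passed 3 (Frmd6, Lgals3 at -0.83 and Pilra, adjusted p = 0.0475 each), the filter at the 50th percentile 2 and the mean of rows 2 (Pilra and Rps15a-ps2 in both). Leaving out 1 array passed 0 to 1. No pairing of the arrays by replicate number was seen over all genes. Same-numbered arrays correlated at 0.02, -0.11, 0.11 and 0.01 in their deviations, and 1 of 8 correlated best with its own number. A pairing that acts on some genes only could be missed by this check. A fit with the number as a block passed 3 (Pilra, Rps15a-ps2 and S100a8) and gave Lgals3 -0.87 (adjusted p = 0.176). The count of genes higher at an unadjusted p under 0.05 was 247 with a minimum log2 difference of 0.2, 469 without the 2 arrays of narrow range, and 558 to 856 with 1 array left out. The count lower was 837 without a filter, 255 with the 50th percentile filter, 88 with the minimum difference, 296 without the narrow arrays, and 344 to 771 with 1 array left out. Of 1143 values for 46 other genes, 22 changed sign, all of Cd8a, Thy1, Lag3, Pdcd1 or Ppp1r15b. Of 1050 list medians, 27 moved by the replicate SD or more. With a median SE of 0.145, small differences of single genes are beyond this design.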
